A study of Mus musculus with 12 samples.

Results

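The genes of the proteasome were examined in white gastrocnemius, the pale part of a calf muscle and rich in fast fibres, from mice lacking gamma3, a regulatory subunit of the energy sensor AMP-activated protein kinase (AMPK), and from their wild type littermates. Members were all genes that the array's annotation names alone on a probe set and whose symbol starts with Psma, Psmb, Psmc, Psmd, Psme or Psmf, without the immunoproteasome genes Psmb8, Psmb9 and Psmb10. This gave 41 genes read by 77 probe sets, out of 12393 genes and 22626 tested probe sets. Where a gene had several probe sets, the one brightest on average over the 12 arrays stood for it. The rule itself uses no measured difference between genotypes, but the gene set was chosen with earlier results of these data known. Of the 41 genes, 39 encode proteasome subunits, dedicated chaperones or regulators, and the other 2 match the symbol rule only by name: Psmc3ip, a partner of meiotic recombinases, and Psme3ip1, a protein that binds the activator subunit encoded by Psme3. Psme2 was left out because its probe set names 2 genes, Psme2 and Psme2b.

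The study compared 6 male AMPK gamma3 knock-out mice with 6 male wild type littermates, all 14 weeks old, of generation F7 on C57BL/6, and studied after an overnight fast, with 1 Affymetrix MOE430A array per mouse. The labels call the 6 samples of each genotype biological replicates and do not say how the allele was made or whether it acts in muscle alone. Values are log2 of the intensities that the authors made with RMA, which corrects background, makes the arrays' distributions alike and summarises each probe set's probes. A probe set's level cannot be set against another probe set's as an amount of transcript, so genes are compared by their differences and spreads. Levels across probe sets serve only to pick a gene's probe set, to call genes bright or dim and to sum marker lists.

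The 26S proteasome is the main protease of the cytosol and nucleus. Its 20S core is a barrel of stacked alpha and beta rings with the protease sites inside, and the 19S cap binds ubiquitylated proteins, unfolds them with a ring of ATPases and feeds them into the core. In fasted muscle, contractile proteins tagged by ubiquitin ligases are broken down along this route. AMPK gamma3, encoded by Prkag3, is a regulatory subunit found mainly in fast glycolytic muscle. Prkag3 was not analysed here, and the labels were not checked against it. For 12 of 12 arrays, the genotype noted in the array record was that of the label.

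The median intensity of an array was 132.5 at the lowest and 139.8 at the highest, correlations between arrays ran from 0.991 to 0.997, and 0 pairs were identical. All 12 muscle fibre markers (such as Acta1, Ckm and Myh4) were above the median level of all probe sets, with summed intensities of 154300 to 159300 in knockout and 149400 to 157100 in wild type. RNA integrity was read from control probe sets for Actb and Gapdh as 3′ over 5′ log2 signal, with a knockout mean of -0.129 ± 0.0820 and a wild type mean of -0.142 ± 0.0311 (SD, n = 6 each, two-sided exact permutation p = 0.747). Arrays were sorted into 3 wash runs by the hybridize date and time in the array records. Differing times on the later scan day were taken as 1 run. The runs are thus inferred from these times, and wash run is a name used here for the groups. Every run held 2 knockout and 2 wild type arrays. Of the slow fibre markers 1 of 9 was higher in knockout and 8 lower, with a median change of -0.42, none past the threshold used below, and summed intensities of 2571 to 7421 in knockout and 2632 to 7406 in wild type. Adipocyte markers were 4 higher and 1 lower of 5 measured, with a median change of 0.15, none past that threshold, and summed intensities of 2546 to 3062 in knockout and 2372 to 2925 in wild type.

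No proteasome gene differed between genotypes past the threshold, a limma p of 0.05 after Benjamini-Hochberg adjustment across the whole array. The count was 0 of 41 at that threshold and 0 of 41 at an unadjusted p under 0.05. On the whole array 3 probe sets, 0.0133%, passed the adjusted threshold, and 6.23% of genes had an unadjusted p under 0.05, 3.37% higher and 2.86% lower in knockout. The smallest adjusted p of a member was 0.833, for Psmb2. The genotypes overlapped in every member, and they did not overlap in 0.371% of all genes. Changes (knockout minus wild type) ran from -0.11 for Psmb2 to 0.14 for Psmb3, with a median standard error of 0.0597, against 0.0593 over all genes. The 95% intervals of single members reached down to -0.22 (Psmb2, or -13.9%) and up to 0.32 (Psmb3, or 24.5%), and 40 of the 41 lay wholly within ±0.26. Whole-muscle RNA was measured, so fewer cells of a type and less RNA per cell cannot be told apart.

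More members lay slightly above zero than below. Of the 41 genes 27 were higher in knockout and 14 lower, with a median change of 0.042, against 47.4% higher and a median of -0.0043 over all 12393 genes. Bright genes as a whole also lay above zero: among the 2136 genes with a mean log2 intensity above 9, 63.4% were higher with a median of 0.024, and among the 31 members above that level 26 were higher with a median of 0.052. These shares describe the fitted values and carry no test. The count of lower members depended on single arrays, with 9 without knockout replicate 1, 9 without wild type replicate 4 and 6 without wild type replicate 5. In the other direction, it was 17 without wild type replicate 1, 15 without knockout replicate 4 and 17 after a further quantile normalization. The median was 0.010 without wild type replicate 1, 0.023 without knockout replicate 5, 0.025 without knockout replicate 4, 0.027 without wild type replicate 6 and 0.067 without wild type replicate 5, and it was 0.010 after a further quantile normalization.

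**Figure D1:**
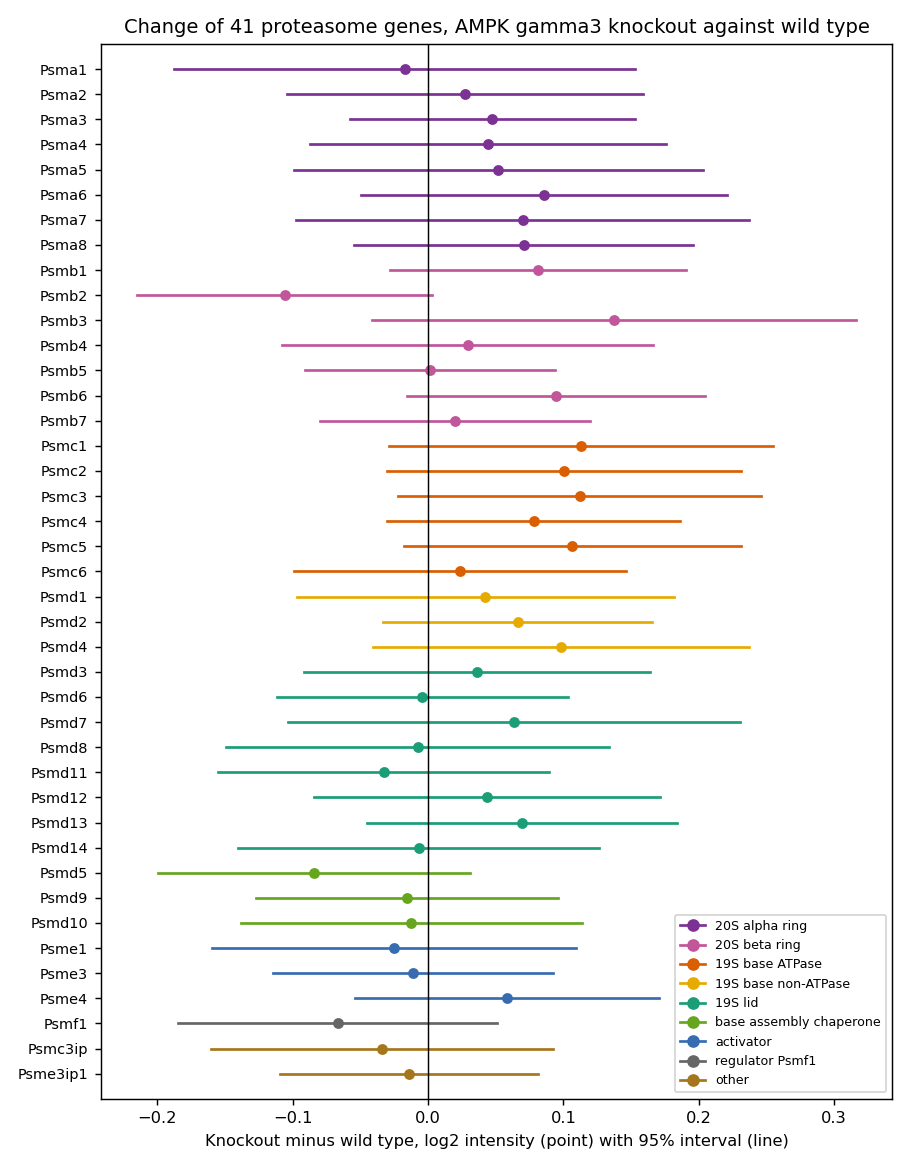
Change of each of the 41 genes between AMPK gamma3 knockout and wild type muscle, in order of role. The horizontal axis gives knockout minus wild type in log2 intensity, points are limma estimates from 6 against 6 arrays, and lines are 95% intervals; every line crosses 0, and the points run from -0.11 (Psmb2) to 0.14 (Psmb3).

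The alpha ring forms the outer rings of the 20S core and gates the entry of substrates. Of its 8 measured genes 7 were higher in knockout and 1 lower, with a median change of 0.050, and none passed. Psma6 had a lowest, median and highest log2 intensity of 11.20, 11.30 and 11.54 in knockout, against 11.02, 11.27 and 11.34 in wild type. Only knockout replicate 5 lay above all wild type arrays, and the change was 0.086 ± 0.0642 (SE, limma adjusted p = 0.911). The probe set used for Psma6 is of a kind whose name ends in x_at, which Affymetrix gives to sets with probes that can match other transcripts. A set without that ending gave 0.097, and the other 2, which were dim, gave -0.068 and -0.071. Psma5 had levels of 9.91, 10.07 and 10.29 in knockout and 9.82, 10.02 and 10.26 in wild type. These ranges nearly coincided, and the change was 0.052 ± 0.0716 (adjusted p = 0.963), where its other sets gave 0.15 and -0.10.

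Psma1 spread most among the alpha genes. It ran from 8.50 to 9.002 in knockout with a median of 8.81, and from 8.62 to 9.04 in wild type with a median of 8.79. The ranges of both genotypes nearly coincided, and the change was -0.017 ± 0.0808 (adjusted p = 0.99). Psma8, which encodes the testis form of an alpha subunit, was dim. It had a lowest, median and highest level of 5.19, 5.37 and 5.45 in knockout and 5.13, 5.29 and 5.41 in wild type, where the median of all probe sets was 7.09. Its change was 0.071 ± 0.0592 (adjusted p = 0.921).

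The beta rings hold the protease sites, on the subunits encoded by Psmb5 (chymotrypsin-like), Psmb6 (caspase-like) and Psmb7 (trypsin-like). Among the 7 beta genes, 6 had a positive and 1 a negative change, the median was 0.029, and none passed the threshold. The catalytic Psmb6 had levels of 10.31, 10.52 and 10.55 (lowest, median, highest) in knockout and 10.26, 10.40 and 10.44 in wild type. Of the knockout arrays 4 lay above every wild type array, the most of any member, while knockout replicate 1 lay below most of the wild type arrays. The change of Psmb6 was 0.094 ± 0.0522 (adjusted p = 0.876), and it was 0.0033, 0.14 and 0.14 in wash runs 1, 2 and 3.

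Psmb5 was the member with the smallest spread, an SD within genotype of 0.0483. Its levels were 10.94, 11.01 and 11.10 in knockout and 10.99, 11.01 and 11.04 in wild type. The wild type arrays lay inside the range of the knockout arrays, with SDs of 0.0665 in knockout and 0.0158 in wild type, and the change was 0.0014 ± 0.0437 with a 95% interval from -0.091 to 0.094. Psmb7 had levels of 12.37, 12.38 and 12.48 in knockout and 12.29, 12.37 and 12.51 in wild type. All knockout arrays lay inside the wild type range, and the change was 0.020 ± 0.0472 (adjusted p = 0.979).

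Psmb2, a structural beta subunit, was the 1 beta gene below zero. It had levels of 10.15, 10.25 and 10.35 in knockout, against 10.26, 10.37 and 10.48 in wild type. The lower 3 knockout arrays lay below every wild type array and the upper 3 within their range. The change was -0.11 ± 0.0518 (unadjusted p = 0.0564, limma adjusted p = 0.833), and it was -0.15, -0.057 and -0.11 in wash runs 1, 2 and 3. Psmb3 had the largest change and the largest spread of all members, with an SD within genotype of 0.171. Its levels were 10.28, 10.47 and 10.80 in knockout and 10.25, 10.42 and 10.60 in wild type. Of the knockout arrays 2 lay above all wild type arrays, and the change was 0.14 ± 0.0848 (adjusted p = 0.896), while a dimmer set gave 0.024. Psmb1 had levels of 10.58, 10.65 and 10.75 in knockout and 10.45, 10.56 and 10.73 in wild type. A single knockout array (1 of 6) lay above all wild type arrays, and the change was 0.081 ± 0.0518 (adjusted p = 0.897), where its other sets gave -0.029 and -0.013. A dimmer Psmb4 set gave 0.21 (unadjusted p = 0.033, adjusted p = 0.812) where the brighter one gave 0.029.

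**Figure D2:**
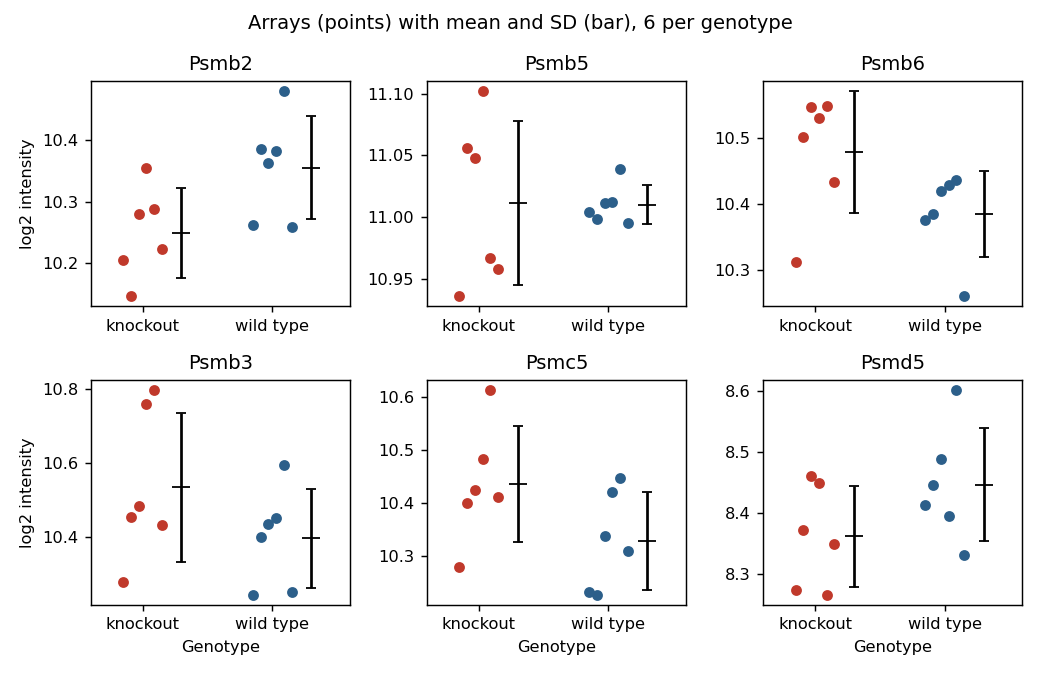
Log2 intensity of 6 members on each array, knockout on the left and wild type on the right of each panel, with the mean and SD of 6 arrays as a bar. Psmb2 and Psmd5 lay lower in knockout on average and Psmb6, Psmb3 and Psmc5 higher, the genotypes overlapped in all 6 panels, and Psmb5 spanned 10.94 to 11.10 in knockout. The vertical axes do not start at 0 and differ between panels.

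The ATPases at the base of the 19S cap unfold substrates. All 6 genes, Psmc1 to Psmc6, were higher in knockout, with changes of 0.024 to 0.11 and a median of 0.10, and none passed. Psmc5 had levels of 10.28, 10.42 and 10.61 in knockout, against 10.23, 10.32 and 10.45 in wild type. Of the knockout arrays 2 lay above all wild type arrays, and the change was 0.11 ± 0.0590 (adjusted p = 0.876). Psmc3 had levels of 10.72, 10.77 and 11.04 in knockout and 10.55, 10.72 and 10.83 in wild type. Again 2 knockout arrays lay above the wild type range, and the change was 0.11 ± 0.0636 (adjusted p = 0.876).

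Psmc1 had levels of 9.31, 9.53 and 9.61 in knockout and 9.22, 9.38 and 9.63 in wild type. The knockout arrays lay inside the wild type range, and the change was 0.11 ± 0.0671 (adjusted p = 0.886), while a dim set gave -0.043. Without wild type replicate 5 its adjusted p was 0.582, the smallest of any member in any of the fits run, and still not past the threshold. Psmc2 is also read best by an x_at set, with 0.10, and its other set gave 0.043. Dimmer sets of Psmc4 and Psmc6 gave 0.18 and 0.21 (unadjusted p = 0.0535 and 0.019, adjusted p = 0.826 and 0.783), where the brighter sets of these genes gave 0.078 and 0.024. All 6 ATPase genes were higher in knockout within each of the 3 wash runs. In run 1 the changes of Psmc6, Psmc5 and Psmc3 were 0.0050, 0.014 and 0.023. Those of Psmc2, Psmc4 and Psmc1 were 0.077, 0.11 and 0.15 there. Over all 41 members, 20 had the same sign in all 3 runs, 17 of them higher. With genotype means removed, the median Pearson r between pairs of the 6 ATPase genes was 0.773. Their signs are thus not independent of each other, and they carry no test.

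The other base subunits scaffold the cap and bind ubiquitin. Psmd4, a ubiquitin receptor, had levels of 10.94, 11.14 and 11.30 in knockout, against 10.84, 11.05 and 11.18 in wild type. The ranges overlapped over most of their length, and the change was 0.098 ± 0.0657 (adjusted p = 0.898), with -0.0029 and 0.0097 at dimmer sets. Psmd2, a large scaffold subunit, had levels of 11.47, 11.61 and 11.64 in knockout and 11.44, 11.52 and 11.61 in wild type. There were 2 knockout arrays above the wild type range, and the change was 0.066 ± 0.0471 (adjusted p = 0.906). Psmd1, the other scaffold, lies on chromosome 1 as does Prkag3, 56 places after it among the 708 measured genes there, ordered by assembly GRCm38.p6. Its levels were 10.94, 11.14 and 11.31 in knockout and 10.98, 11.03 and 11.21 in wild type, and the change was 0.042 ± 0.0660 (adjusted p = 0.964).

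The lid removes ubiquitin before a substrate enters the core, and Psmd14 encodes the deubiquitylating enzyme that does so. Its change was -0.0069 ± 0.0632 (adjusted p = 0.994). Of the 8 lid genes 4 were higher and 4 lower, with changes between -0.033 for Psmd11 and 0.069 for Psmd13. Psmd13 had levels of 9.26, 9.34 and 9.52 in knockout and 9.17, 9.31 and 9.37 in wild type. Of the knockout arrays 3 lay above all wild type arrays (change 0.069 ± 0.0541, adjusted p = 0.918). Psmd7 had levels of 9.55, 9.67 and 9.81 in knockout and 9.35, 9.59 and 9.95 in wild type. The knockout arrays lay inside the wild type range (change 0.063 ± 0.0791, adjusted p = 0.958). Psmd11 had levels of 11.47, 11.57 and 11.66 in knockout and 11.48, 11.59 and 11.76 in wild type. Its change was -0.033 ± 0.0578 (adjusted p = 0.97), and its 6 probe sets ran from -0.046 to 0.075, none of them past the threshold.

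The 3 chaperones that assemble the base, encoded by Psmd5, Psmd9 and Psmd10, were all lower in knockout, with a median of -0.015. Psmd5 had levels of 8.27, 8.36 and 8.46 in knockout, against 8.33, 8.43 and 8.60 in wild type. The change was -0.084 ± 0.0545 (adjusted p = 0.897), and it was -0.081, -0.013 and -0.16 in wash runs 1, 2 and 3. Psmd9 ran from 8.09 to 8.33 in knockout and from 8.12 to 8.30 in wild type. It gave -0.015 ± 0.0528 and the dim Psmd10 -0.012 ± 0.0597 (adjusted p = 0.985 and 0.991). Among activators that replace the 19S cap on the core, Psme4 (PA200) had levels of 11.12, 11.20 and 11.31 in knockout and 11.04, 11.15 and 11.27 in wild type. Above the wild type range lay 2 knockout arrays, and the change was 0.058 ± 0.0532 (adjusted p = 0.938), where its other sets gave -0.076 and -0.0053. Psme1 (PA28 alpha) ran from 8.85 to 8.99 in knockout, inside its wild type range of 8.66 to 9.13. It gave -0.025 ± 0.0638 and Psme3 (PA28 gamma) -0.011 ± 0.0490 (adjusted p = 0.98 and 0.99). Psmf1, which encodes the proteasome inhibitor PI31, ran from 8.42 to 8.69 in knockout and from 8.50 to 8.73 in wild type. It gave -0.067 ± 0.0558 (adjusted p = 0.92), and Psmc3ip and Psme3ip1 gave -0.034 and -0.014 (adjusted p = 0.97 and 0.983).

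The subunit genes of the 20S core and the 19S cap varied together from array to array within each genotype. With 1 array per mouse, differences between mice and between RNA preparations or arrays cannot be told apart. To describe this, each genotype's mean was subtracted from each gene and Pearson's r was taken over the 12 arrays for pairs of genes. The points of each such r share the same arrays and the same normalization, so the values are descriptions and carry no p. Over the 465 pairs of the 31 core and cap genes without the testis gene Psma8, the median r was 0.629, and 98.5% of pairs were above 0. Over all 76787028 pairs of genes on the array the median was 0.0294, and over pairs of genes with a mean log2 intensity above 9 it was 0.12. Pairs of a 20S gene with a 19S gene had a median of 0.654. Within roles the median was 0.773 for the ATPases, 0.684 for the 8 alpha genes, 0.615 for the beta genes and 0.475 for the lid. Over all 41 members the median r was 0.486, with 85% of pairs above 0, and over the 10 members outside the 31 genes it was 0.073. The same measure gave 0.353 for 38 cytosolic ribosomal protein genes and 0.312 for 33 complex I genes, sets picked by symbol with the proteasome values known.

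**Figure D3:**
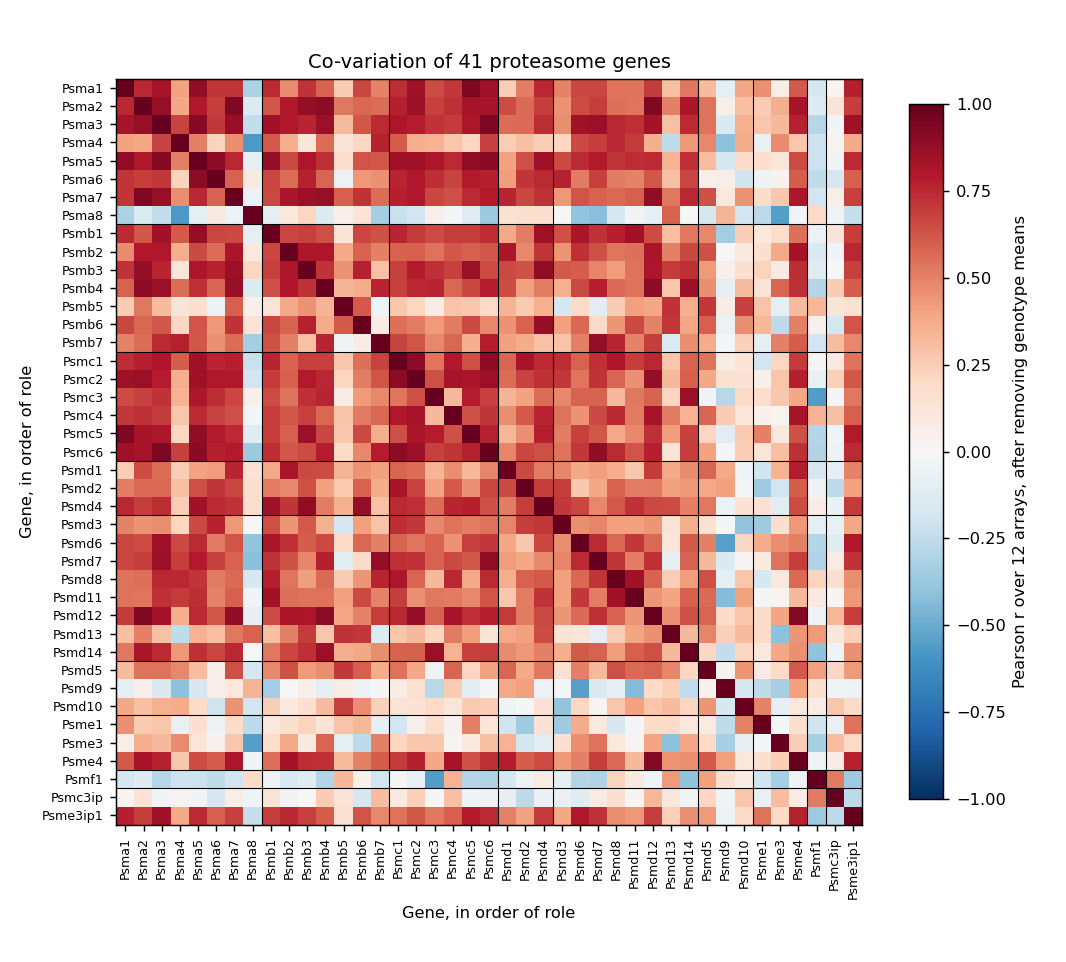
Pearson r between the 41 genes over 12 arrays after each genotype's mean was removed, with genes in order of role on both axes and black lines between roles. Red marks positive and blue negative r; the block of core and cap genes is mostly red, with a median r of 0.629 without Psma8, while Psma8, Psmd9, Psmf1 and Psmc3ip form pale or blue bands.

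The shared level was low on knockout replicate 1 and wild type replicates 1 and 6 and high on knockout replicate 5 and wild type replicate 5. The mean of the 31 genes, each centred on its own mean over 12 arrays, had a lowest, median and highest value of -0.10, 0.028 and 0.12 in knockout and -0.14, -0.029 and 0.14 in wild type. From the lowest to the highest array this is 1.16-fold in knockout and 1.22-fold in wild type. The genotype means differed by 0.047 with SDs of 0.0729 in knockout and 0.0946 in wild type (n = 6 each), so the difference was smaller than the spread between arrays. It was 0.080 without wild type replicate 5. In the array records the low arrays named above carried cage letter b and the high ones letter a. The remaining b array, knockout replicate 6, lay at 0.027. The remaining a arrays ran from -0.039 (wild type replicate 3) to 0.069 (knockout replicate 4). The part of the cage in the shared level was not tested. Of the 41 members 20 had their highest value on wild type replicate 5 and 17 their lowest on wild type replicate 1.

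The median r stayed above that of bright genes in both genotypes and in each fit tried. The median r of the 31 genes was 0.515 over the knockout arrays alone and 0.765 over the wild type arrays alone, and the difference between these was not tested. It ran from 0.4999 to 0.674 when each array was left out in turn, with the lowest value without wild type replicate 5. With the wash run removed as a block it was 0.602, with the cage letter of the array records 0.484 and with the fluidics module 0.722. With the 3′ to 5′ ratio as a covariate it was 0.654. The mean of the 31 genes had a within-genotype r of 0.233 with that ratio and -0.321 with the array median. With the mean of marker lists it had an r of 0.179 for slow fibres, 0.293 for adipocytes, -0.612 for endothelium, -0.497 for fibroblasts and -0.0378 for macrophages and leukocytes. In knockout 7 of the 9 endothelial markers were lower and 2 higher (median change -0.063), as were 6 and 2 of the 8 fibroblast markers (median change -0.050), and none passed the threshold. The summed intensity of the 9 endothelial markers ran from 2601 to 2845 in knockout and from 2764 to 3135 in wild type, with 1 of them below the median level of all probe sets, and that of the 8 fibroblast markers from 10470 to 16200 in knockout and from 11770 to 15300 in wild type. The part of these cell types in the shared level was not tested.

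**Figure D4:**
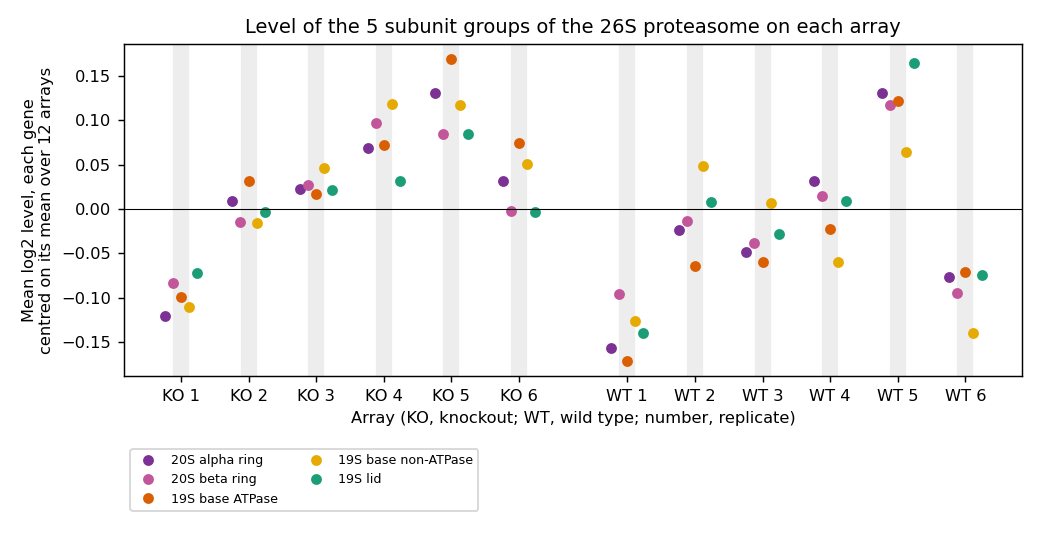
Mean log2 level of the 5 subunit groups on each array, with each gene centred on its mean over 12 arrays. Points are the groups (8 alpha, 7 beta, 6 ATPase, 3 other base and 8 lid genes), with the knockout arrays on the left and wild type on the right; the groups lie together on most arrays, low on wild type replicate 1 (-0.17 to -0.096) and high on wild type replicate 5 (0.064 to 0.16).

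Single members differed in how closely they followed the mean of the core and cap genes. Each of the 31 genes was set against the mean of the other genes of that group, and the median r was 0.797. The highest was 0.95 for Psma3, followed by 0.94 for Psma5, 0.909 for Psma2 and 0.906 for Psmc6. Of the 31 genes 29 had an r above 0.5, and the remaining 2 were the lid gene Psmd13 (0.412) and the catalytic Psmb5 (0.339), which also had the smallest spread. Among genes that are no members and lie above a mean log2 intensity of 9, the median r was 0.243 and 23.4% exceeded 0.5. Psmb6 and Psmb7 gave 0.67 and 0.652.

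Of the 10 remaining members, 3 had an r above 0.5: Psme4 with 0.798, Psme3ip1 with 0.765 and the chaperone gene Psmd5 with 0.54. The values of Psma8 (-0.102), Psmd9 (-0.052), Psmf1 (-0.158) and Psmc3ip (0.0486) were near zero. Psme1 gave 0.128, Psme3 0.258 and the dim Psmd10 0.257.

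**Figure D5:**
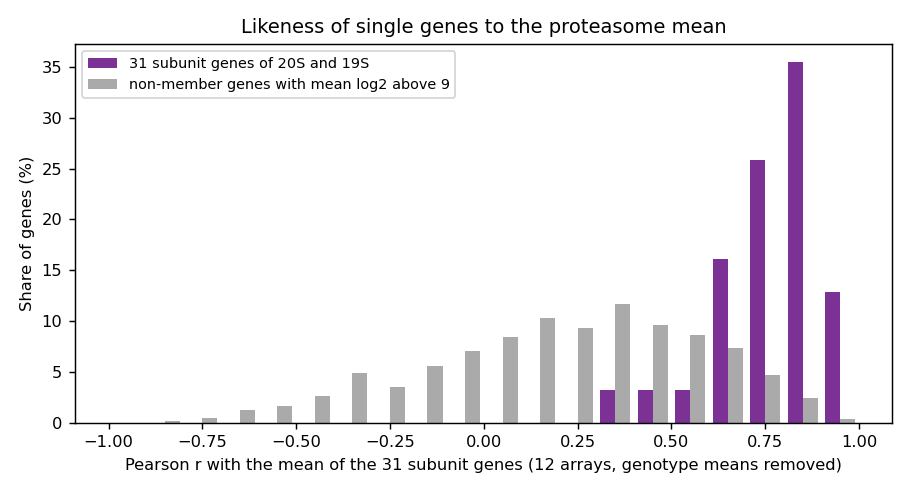
Share of genes, in percent, by their Pearson r with the mean of the 31 core and cap genes over 12 arrays, after genotype means were removed. Purple bars are these genes, each set against the mean of the other genes of the group, and grey bars are genes that are no members and have a mean log2 intensity above 9; the purple bars lie between 0.339 and 0.95, and the grey ones centre on a median of 0.243.

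The promoters of members were searched because the genes varied together. Nfe2l1 is known to drive proteasome genes through antioxidant response elements when the proteasome is impaired. RefSeq promoter sequences of build GRCm38.p6, from 250 bases before to 50 after a gene's start, were found for 34 of the 41 genes in 37 promoters. The core of the element was searched as TGACNNNGC on both strands. It was present in 6 of the 37 promoters, 16.2%, against 12.4% of all 32851 promoters of this length. The CCAAT box, a common promoter element bound by NF-Y, searched as CCAAT on both strands, was present in 14 of the 37, 37.8%, against 37.4% of all. A match describes letters in this window and is not evidence of binding. The stretches around the match are shown for the 4 core and cap genes that hold it, from before the start, 5′ to 3′ on the gene's strand, with the match in capitals (Psmb5 and Psmb6 as read on this strand, Psmc6 and Psmd12 on the opposite strand).
Psmb5, chr14:54618009-54618067, minus strand: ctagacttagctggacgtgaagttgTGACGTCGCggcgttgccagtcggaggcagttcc
Psmb6, chr11:70525323-70525356, plus strand: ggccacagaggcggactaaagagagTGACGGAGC
Psmc6, chr14:45329574-45329630, plus strand: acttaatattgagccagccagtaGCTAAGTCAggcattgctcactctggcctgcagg
Psmd12, chr11:107479278-107479314, plus strand: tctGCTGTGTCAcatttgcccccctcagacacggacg
Of these 4, Psmc6 and Psmd12 had an r of 0.906 and 0.869 with the mean of the other core and cap genes, Psmb6 0.67 and Psmb5 0.339.

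Other genes of the pathway were taken from lists by function. None of them passed. Of the regulators of proteasome genes 6 of 7 were higher in knockout and 1 lower, with a median of 0.068. The 6 were not all activators and included Keap1 (0.12, limma adjusted p = 0.861), whose other set gave -0.036. Mafg, a small Maf protein that pairs with Nfe2l1 and Nfe2l2, had levels of 9.14, 9.36 and 9.51 in knockout, against 8.99, 9.10 and 9.40 in wild type. The ranges overlapped, and the change was 0.18 ± 0.0781 (unadjusted p = 0.0373, adjusted p = 0.817), while its other set gave 0.16. Nfe2l1 itself had levels of 10.51, 10.69 and 10.76 in knockout and 10.45, 10.57 and 10.67 in wild type. Its change was 0.10 ± 0.0528 (adjusted p = 0.854), and its r with the core and cap genes was 0.464. The median r of the 7 regulators was 0.442, with the highest values for Ngly1 (0.69) and Keap1 (0.512). Among bright genes that are no members, 23.4% exceeded 0.5. A part of Nfe2l1 in the shared level was not tested.

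Assembly factors and partners of the proteasome were 7 higher and 5 lower of 12 measured, with a median of 0.017. Pomp, the chaperone of core assembly, gave 0.085 ± 0.0480 and Psmg1, which assembles the alpha ring, 0.096 ± 0.0548 (adjusted p = 0.876 and 0.877). The 12 genes had a median r of 0.115 with the core and cap genes. The immunoproteasome genes Psmb8, Psmb9 and Psmb10, whose products replace the catalytic subunits under interferon, were all lower, by -0.017, -0.039 and -0.0019 (adjusted p = 0.982, 0.964 and 0.999). Their median r with the core and cap genes was -0.163. The leukocyte markers, of which 8 of 13 were higher and 5 lower, had summed intensities of 4741 to 6204 in knockout and 4649 to 5351 in wild type.

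Ubiquitin conjugation and delivery genes were 11 higher and 3 lower of 14 measured, with a median of 0.040 and a median r of 0.486 with the core and cap genes. Ubqln4, a shuttle that carries ubiquitylated proteins to the proteasome, gave 0.12 ± 0.0560 (unadjusted p = 0.0397, adjusted p = 0.817), while its dimmer set gave -0.012. The conjugating enzyme Ube2d2a gave 0.079 ± 0.0430 (adjusted p = 0.868). An r above 0.5 with the core and cap genes was found for 7 of the 14, among them the shuttle Ubqln1 (0.89), the p97 cofactors Nsfl1c (0.816) and Ufd1 (0.75), and Fbxo32 (0.771). Fbxo32, the muscle ubiquitin ligase atrogin-1, had levels of 11.49, 11.66 and 12.11 in knockout, against 11.42, 11.77 and 12.33 in wild type. Both genotypes spanned a wide range, and the change was -0.094 ± 0.134 (adjusted p = 0.964).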

How the data were processed

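Total RNA from 12 mice was measured on Affymetrix MOE430A arrays. The authors made the deposited intensities with RMA (the submitters' processing notes name it, and its version is not given in the sources used here). They were linear, between 7.47 and 21828, and were turned into log2 values here. RMA makes distributions alike, which hides any change common to most transcripts. Precision is limited by the 6 arrays of each genotype. Other values the authors deposited are array records, read for scan day, cage, fluidics module and the times from which wash runs were inferred. Of 22690 probe sets, 64 controls were left out. The annotation names 1 gene on 20380 probe sets, several on 691 and none here on 1555.

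Knockout was compared with wild type in R 4.3.3 by limma 3.58.1 (functions lmFit and eBayes, genotype as the only term, two-sided), adjusted over 22626 probe sets. The code was also run on simulated data with 200 changed probe sets and independent noise for each probe set. That run lacked the variation that genes share between arrays, so it checked the code and bears on no result here. The members and lists were chosen with earlier results of these data known. Fully described members were, per role, the 2 with the smallest p, the 2 largest and 2 smallest SDs, the catalytic genes and those whose probe sets disagreed in sign by over 0.1; genes that lead or trail in co-variation were named after their values were seen. The co-variation of genes was computed with numpy 2.4.6. Samples with the same replicate number were not paired in the main fit. Their deviations from the group means correlated at -0.15 to 0.203, above 0.1 in 2 of 6 pairs. In the array records the knockout and wild type arrays of each number carried the same cage letter. Fits with the replicate number or the cage letter as a block were among the alternatives.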

Additional observations from a re-analysis of the deposited data

Results flagged for a closer look

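In 7 of the 96 sets of 6 arrays looked at (each member and the group means, by genotype), 1 array lay far from the others by Dixon's criterion, which sets the gap to the nearest array against the whole range. Chance gives about 1 in 20 such sets. In knockout, replicate 6 was high for Psmb7 (12.48, next array 12.38), and replicate 5 was high for Psma6 (11.54, next 11.33) and Psmd3 (9.95, next 9.75). Knockout replicate 1 was low for Psmc1 (9.31, next 9.51) and Psmd2 (11.47, next 11.58), and knockout replicate 2 was low for Psme3 (8.44, next 8.55). In wild type, replicate 6 was low for Psmb6 (10.26, next 10.38).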

How the results depend on the processing

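No member passed the threshold in any of the 23 other fits, with a smallest adjusted p of 0.582. Over the whole array 2 or 3 probe sets passed in each fit. The median change of the 41 genes stayed above zero, from 0.010 to 0.067 when each array was left out and from 0.010 (quantile normalization) to 0.071 (wash run 2 alone) otherwise. The count of lower genes was 14 as reported and 6 to 17 when each array was left out. It was 17 after quantile normalization and 8 with the fluidics module as a block. Unlike the other blocks, the modules were not balanced by genotype. Modules 1 and 2 held more knockout than wild type arrays, and modules 3 and 4 the reverse. Module and genotype are thus partly confounded. With the replicate number as a block 0 members passed, and the block changed no call among them. The median of 0.042 and the count of 14 lower genes could not change under it, because each number held 1 knockout and 1 wild type array. Over the whole array 2 probe sets passed with this block, against 3 in the main fit. No knockout array correlated best with the wild type array of its own number (0 of 6).

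Of 574 values of single members under alternatives that used at least 11 arrays, 19 had the opposite sign to the reported change, which was not called in any of them. Many of the 574 could not change sign. The replicate, wash run, scan day and cage blocks each held as many knockout as wild type arrays, so these fits returned the reported change. Fits with another variance model or with only the brighter probe sets also left it unchanged. The share of 19 in 574 is therefore no measure of stability. Psmb5 gave -0.036 after quantile normalization, -0.011 with array weights, and -0.017 to 0.017 over arrays left out. With the fluidics module as a block, Psma1 gave 0.0033 and Psme1 0.023, and Psme4 gave -0.0077 as a mean of its probe sets. Within single wash runs of 4 arrays, which carry no test, 13 of 75 values had the opposite sign, in 10 members. Among them Psme1 gave 0.17 and Psma8 -0.040 in run 2, Psmf1 gave 0.066 in run 1, and Psmb5 gave -0.054 and Psmd9 0.059 in run 3. Over arrays left out, Psma1 ran from -0.060 to 0.041, Psme1 from -0.078 to 0.015, Psmd9 from -0.043 to 0.0048, Psmd11 from -0.057 to 0.00072, Psmc3ip from -0.053 to 0.0019 and Psme3ip1 from -0.026 to 0.00058. The median r of the 31 core and cap genes, alternatives to which were chosen after seeing the data, was 0.629; it was 0.484 with the cage block, 0.722 with the fluidics module block, 0.69 with arrays centred on their medians, 0.515 in knockout alone, 0.765 in wild type alone and 0.4999 to 0.674 with each array left out. Signal limits 2 members, Psma8 and Psmd10, which lay below the median level of all probe sets.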
